A study of Mus musculus with 21 samples.

Results

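The E2F transcription factors and the retinoblastoma proteins were followed as 10 genes, E2f1 to E2f8, Rb1 and Rbl1 (which encodes p107), in sorted mouse medulloblastoma cells. Their members were every probe set whose platform symbol was 1 of these genes: 22 of the 34945 probe sets with 1 symbol, of which 19 passed a filter on low signal. Each gene was tested on its brightest probe set, and all 10 were among the 12367 genes tested. Probe sets were taken by gene symbol, but the 10 genes were chosen with earlier results of these data known.

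In the textbook pathway, retinoblastoma-family proteins bind E2F factors in resting cells and hold cell cycle genes silent. Cyclin-dependent kinases then phosphorylate the pocket proteins, E2F is released, and genes for DNA synthesis are switched on in late G1. E2F1, E2F2 and E2F3 act mainly as activators, E2F4 and E2F5 act mainly with pocket proteins as repressors, E2F6 represses without a pocket protein, and E2F7 and E2F8 are atypical repressors that bind DNA without a dimer partner. In the developing cerebellum, Hedgehog signalling drives granule cell precursors through this G1 step, and Patched is the receptor that restrains it.

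Total RNA was taken from primary cerebellar tumour cells of Patched medulloblastomas sorted by CD15, a surface carbohydrate also called SSEA-1, and hybridised to 21 Affymetrix mouse arrays. By title, 4 arrays held CD15 positive and 5 held CD15 negative cells of Math1-GFP tumours, and 6 held CD15 positive and 6 held CD15 negative cells of conventional tumours. Math1, also called Atoh1, is a transcription factor of granule cell precursors; the description of the Math1-GFP samples calls them conventional too, so their group rests on the title. The labels used here give no strain, Patched allele, age, sex or number of pooled mice, nor whether each array stands for its own mouse; the p-values therefore reflect array-to-array spread, which may be partly technical.

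The median signal per array was 22.1 to 32.7, and no pair of arrays held identical values. The conventional arrays numbered 2 to 5 correlated more with each other, as did the unnumbered arrays with number 6, than across these sets (mean r of 0.958 within and 0.928 between), and Math1-GFP arrays 1 and 2 correlated less with the other Math1-GFP arrays (mean r of 0.936) than those did among themselves (0.971). Every Math1-GFP title ends in le2 and every conventional title in le1, so model and this suffix cannot be told apart. Markers of the granule neuron lineage and its tumour were past the filter for 8 of 8 genes. Ptch1 signal, for example, was 620 to 4258 over all arrays.

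In CD15 positive cells, the atypical repressors E2f8 and E2f7 and the pocket protein gene Rbl1 were higher. Averaged over both tumour models, E2f8 was higher by 0.59 ± 0.13 (log2 fold change ± SE, here and below), E2f7 by 0.46 ± 0.13 and Rbl1 by 0.44 ± 0.14. In limma over all genes, their adjusted p-values were 0.0048, 0.027 and 0.047. None of the activators E2f1, E2f2 and E2f3 passed the test, and neither did E2f4, E2f5 and E2f6 on their brightest probe sets or Rb1. These 3 of 10 genes stood against 3.77% of all genes called higher, 5.97% called lower and 9.74% called in either direction. The median log2 fold change was 0.10 over the 10 genes and 0.00 over all genes tested. In bulk RNA of sorted cells, fewer cells of a type and less RNA per cell cannot be told apart.

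**Figure D1:**
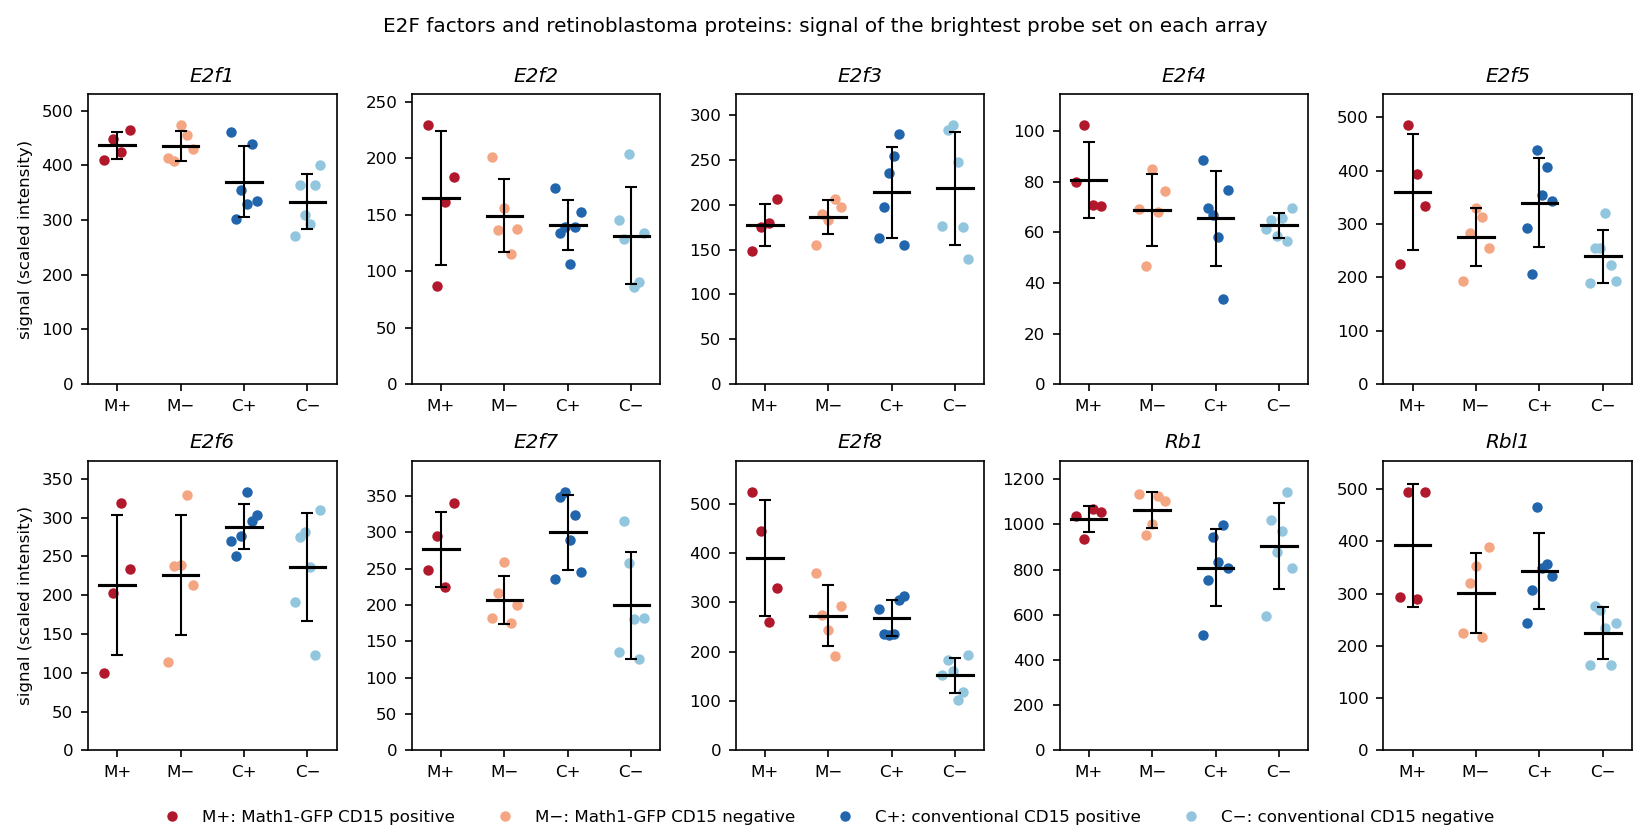
Signal (scaled intensity, linear axis from 0) of the brightest probe set of each of the 10 genes on each array, by group; lines are means and bars are SD (n = 4 Math1-GFP CD15 positive, 5 Math1-GFP CD15 negative, 6 conventional CD15 positive and 6 conventional CD15 negative arrays). E2f8 is the gene whose conventional CD15 positive arrays (234 to 312) all lie above the conventional CD15 negative arrays (103 to 194); in the other 9 panels the CD15 groups of each model overlap. Heights are not comparable between panels, since each probe set has its own brightness.

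E2f8 had signals of 524, 444, 261 and 329 in Math1-GFP CD15 positive cells, against 360, 274, 245, 192 and 292 in Math1-GFP CD15 negative cells. In conventional tumours it ranged from 234 to 312 with a median of 262 in CD15 positive cells, and from 103 to 194 with a median of 157 in CD15 negative cells. The conventional groups did not overlap, which held for 1.89% of all genes in this direction, while the Math1-GFP groups did, as they did for each of the 10 genes on its brightest probe set (2.54% of all genes were higher there without overlap). The difference was 0.45 ± 0.19 in Math1-GFP tumours (adjusted p = 0.48) and 0.72 ± 0.17 in conventional tumours (adjusted p = 0.0093), a fold of 1.65 on the scale of signal plus 32. All 5 numbered pairs of conventional arrays were higher in CD15 positive cells, by 0.32 to 1.17. The conventional call held on leaving out any single array; it was lost when the probe sets of E2f8 were averaged (0.31, adjusted p = 0.061). The conventional signals of the dimmer probe set, 1444319_at, averaged 8.96 in CD15 positive and 11.9 in CD15 negative cells, below the filter signal of 15.5, and it passed the filter through the Math1-GFP groups. There its signals were 64.4, 62.4, 83.0 and 85.7 in CD15 positive cells, against 45.7, 58.0, 58.9, 50.9 and 53.1 in CD15 negative cells, without overlap, and the difference was 0.31 ± 0.16 (adjusted p = 0.69 in a fit of every probe set).

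E2f7 had signals of 248, 294, 224 and 341 in Math1-GFP CD15 positive cells, against 183, 217, 259, 175 and 199.7 in Math1-GFP CD15 negative cells. In conventional tumours it ranged from 236 to 356 with a median of 306 in CD15 positive cells, and from 126 to 316 with a median of 181 in CD15 negative cells. The groups of both models overlapped, with conventional CD15 negative arrays 2 and 3 as high as CD15 positive ones. The difference was 0.37 ± 0.20 in Math1-GFP tumours (adjusted p = 0.64) and 0.56 ± 0.17 in conventional tumours (adjusted p = 0.046), and 5 of 5 numbered pairs were higher in CD15 positive cells, by 0.13 to 1.17. With 1 array left out the conventional difference stayed at 0.46 to 0.69, but its call lay near the threshold. The call was lost, with adjusted p of 0.0529 to 0.126, without any 1 of 12 arrays, and also under 8 of 17 other settings. The 12 were CD15 positive arrays 2, 3, 4 and 5, CD15 negative arrays 4, 5, 6 and the unnumbered one, Math1-GFP CD15 positive array 5 and Math1-GFP CD15 negative arrays 4, 8 and 10. The average call was lost on leaving out any 1 of Math1-GFP arrays 5, 8 and 9 (or both arrays 1 and 2, adjusted p = 0.053) (adjusted p of 0.0509 to 0.0678).

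Rbl1 encodes p107, a pocket protein that binds E2F4 and E2F5 and is itself induced as cells enter the cycle. Its signals were 293, 495, 289 and 493 in Math1-GFP CD15 positive cells, against 224, 321, 353, 217 and 389 in Math1-GFP CD15 negative cells. In conventional tumours they ranged from 244 to 466 with a median of 341 in CD15 positive cells, and from 163 to 276 with a median of 239 in CD15 negative cells. The groups of both models overlapped, and 5 of 5 numbered conventional pairs were higher in CD15 positive cells, by 0.14 to 0.99. The difference was 0.34 ± 0.21 in Math1-GFP tumours (adjusted p = 0.71) and 0.55 ± 0.18 in conventional tumours (adjusted p = 0.069), so that only the average of both passed. That call was lost, with adjusted p of 0.0555 to 0.109, without any 1 of 13 arrays: conventional CD15 positive arrays 2 to 6, conventional CD15 negative arrays 4, 5 and the unnumbered one, Math1-GFP CD15 positive arrays 5 and 9, and Math1-GFP CD15 negative arrays 2, 4 and 8. It was also lost under 7 of 16 other settings, among them without Math1-GFP arrays 1 and 2 (0.46, adjusted p = 0.056). Without the unnumbered conventional CD15 positive array, the conventional difference was 0.63 (adjusted p = 0.044). A dimmer Rbl1 probe set past the filter, 1425166_at, passed no CD15 test in a fit of every probe set. It gave 0.26 ± 0.22 on average (adjusted p = 0.55), 0.18 ± 0.33 in Math1-GFP tumours (0.96) and 0.33 ± 0.29 in conventional tumours (0.59).

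**Figure D2:**
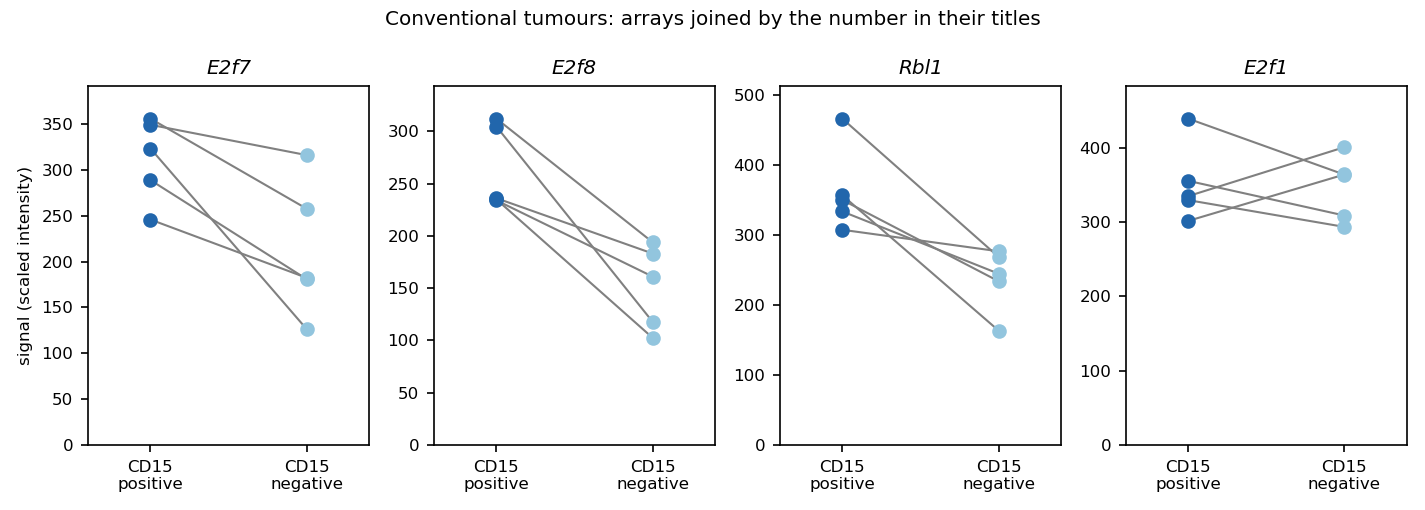
Signal (scaled intensity, linear axis from 0) of E2f7, E2f8, Rbl1 and E2f1 on conventional CD15 positive (left) and CD15 negative (right) arrays; lines join the 5 pairs with the same number in their titles. For E2f7, E2f8 and Rbl1 every line is higher on the left, and for E2f1 3 of 5 are.

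In each model alone, the count of called genes was small. In Math1-GFP tumours 0 of the 10 genes passed in limma, where 0.0404% of all genes (5 genes) did, and 1 of the 10, E2f8, had an unadjusted p under 0.05, against 8.68% of all genes. In conventional tumours 2 of 10 passed, both higher, against 3.05% of all genes called higher, 5.09% called lower and 8.13% in either direction. The difference between the models' CD15 differences was tested directly and passed for 0 of 10 genes and for 0 genes overall (0%) in limma (0 of 10 and 279 of all genes, 2.26%, at an unadjusted p under 0.05). For E2f8 it was -0.27 (95% interval -0.80 to 0.25, Math1-GFP minus conventional), for E2f7 -0.19 (-0.74 to 0.35) and for Rbl1 -0.21 (-0.78 to 0.37), intervals that include no difference and differences as large as the effects themselves.

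Within the conventional arrays 2 to 5, the CD15 difference was 0.73 for E2f8 (adjusted p = 0.040), 0.58 for E2f7 (0.089) and 0.59 for Rbl1 (0.11). Among the unnumbered arrays and number 6 it was 0.70 for E2f8 (0.59), 0.52 for E2f7 and 0.45 for Rbl1, and there 0 genes passed in all. The values of the 2 sets lay close together, and their difference was not tested. With the number as a block over the 5 pairs, E2f8 was higher by 0.71 (adjusted p = 0.025) and E2f7 by 0.54 (0.031). On the same arrays without the block, the adjusted p of E2f7 was 0.083, and the block moved the count over all genes to 1235, against 768.

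**Figure D3:**
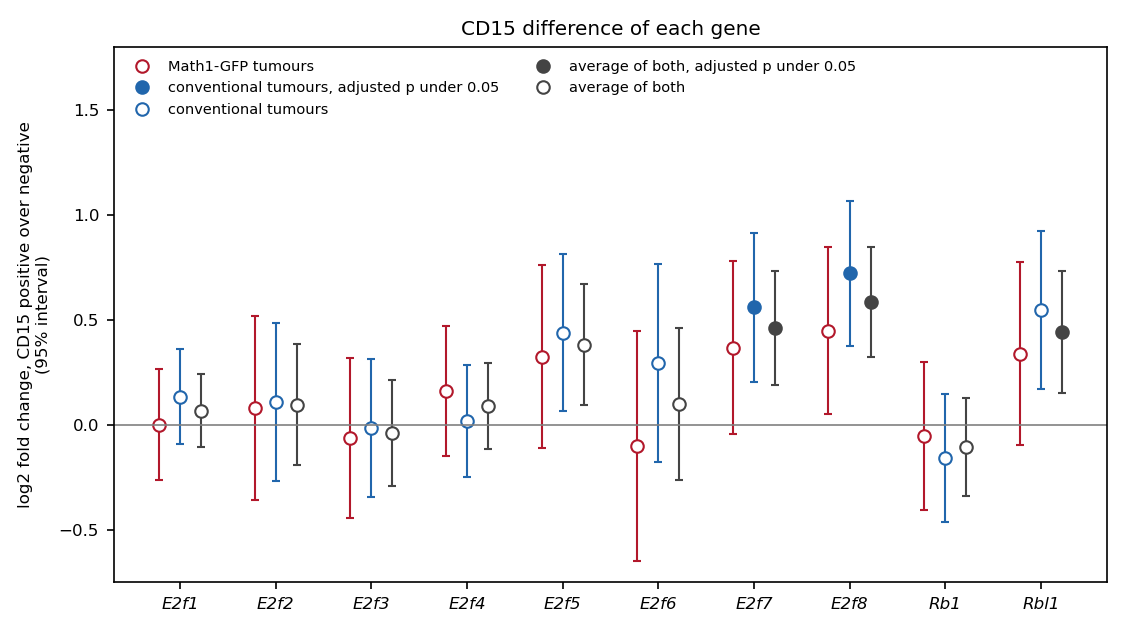
Log2 fold change of CD15 positive over CD15 negative cells with its 95% interval for each gene, in Math1-GFP tumours, in conventional tumours and averaged. Filled points have an adjusted p under 0.05: E2f7 and E2f8 in conventional tumours, and E2f7, E2f8 and Rbl1 in the average; E2f1, E2f2, E2f3, E2f4 and Rb1 lie near 0.

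Among the activators, E2f1 had signals of 409, 447, 425 and 465 in Math1-GFP CD15 positive cells, against 414, 408, 473, 455 and 429.988 in Math1-GFP CD15 negative cells. In conventional tumours it ranged from 301 to 461 with a median of 345 in CD15 positive cells, and from 272 to 401 with a median of 336 in CD15 negative cells. The CD15 groups overlapped in both models. Averaged, the CD15 difference of E2f1 was 0.07 ± 0.08 (95% interval -0.11 to 0.24), that of E2f2 0.10 ± 0.14 (-0.19 to 0.38) and that of E2f3 -0.04 ± 0.12 (-0.29 to 0.21). Their other probe sets also passed no CD15 test.

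E2f4 and E2f5 encode the factors that carry p107 and p130 to promoters in resting cells. E2f4 had group means of 80.8 ± 14.9 in Math1-GFP CD15 positive cells (SD, n = 4) and 69.0 ± 14.3 in Math1-GFP CD15 negative cells (n = 5). Its conventional means were 65.6 ± 18.7 in CD15 positive and 62.8 ± 4.9 in CD15 negative cells (SD, n = 6 each), and its average CD15 difference was 0.09 ± 0.10 (95% interval -0.11 to 0.29). E2f5 had signals of 226, 485, 394 and 334 in Math1-GFP CD15 positive cells, against 193, 283, 331, 313 and 255 in Math1-GFP CD15 negative cells. Its conventional CD15 positive arrays ranged from 206 to 439 with a median of 348, and the CD15 negative arrays from 189 to 321 with a median of 239. The average difference of 0.38 ± 0.14 missed the threshold (adjusted p = 0.084), as did the conventional one of 0.44 ± 0.18 (0.15). A second E2f5 probe set, 1460207_s_at, was higher by 0.39 ± 0.12 on average (adjusted p = 0.042 in a fit of every probe set, where 2.6% of probe sets were called higher and 4.92% lower), and in 5 of 5 conventional pairs. A further one, 1447625_at, gave 0.26 ± 0.19 (0.45). E2f5 on its brightest probe set passed in the average without conventional CD15 positive array 2 or without Math1-GFP CD15 positive array 1 (adjusted p of 0.0344 and 0.0264), and without both Math1-GFP arrays 1 and 2 (0.42, adjusted p = 0.048).

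E2f6 acts in a variant Polycomb complex and holds germline genes silent. Its brightest probe set had signals of 99.8, 203, 318 and 234 in Math1-GFP CD15 positive cells, against 113, 237, 239, 329 and 213 in Math1-GFP CD15 negative cells. Arrays 1 and 2, which stood apart from the other Math1-GFP arrays, were the lowest of each group. In conventional tumours the signals ranged from 251 to 333 in CD15 positive cells and from 123 to 310 in CD15 negative cells. The average CD15 difference was 0.10 ± 0.17 (95% interval -0.26 to 0.46).

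Rb1 encodes the retinoblastoma protein, the pocket protein that chiefly binds the activators. Its signals were 1039, 937, 1067 and 1054 in Math1-GFP CD15 positive cells, against 1134, 954, 1003, 1127 and 1106 in Math1-GFP CD15 negative cells. In conventional tumours they ranged from 513 to 997 with a median of 819.832 in CD15 positive cells, and from 597 to 1145 with a median of 924 in CD15 negative cells. The groups overlapped, and the average CD15 difference was -0.10 ± 0.11 (95% interval -0.34 to 0.13). Of the 5 numbered conventional pairs, 1 was higher in CD15 positive cells. A second Rb1 probe set and 2 further ones of Rbl1 lay below the filter, and in a fit without the filter none of these 3 passed the average CD15 test, where 1.63% of probe sets were called higher and 3% lower.

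Promoter sequence was at hand for 7 of the 10 genes, as 9 windows of 250 bases upstream of an annotated start (RefSeq, GRCm38.p6); E2f4, E2f5 and Rb1 had none. The windows were searched on both strands for the E2F site spelled TTTCCCGC, TTTGGCGC, TTTCGCGC or TTTGCCGC, and for the cell cycle homology region, CHR, spelled TTTGAA, a letter pattern of late cell cycle promoters. Of 32851 such windows genome-wide, 1.86% held the E2F site and 16% held the CHR. The sequences of the 3 genes called in the CD15 average are shown, 5′ to 3′ on the gene's strand, with the match in capitals. E2f7 held GCGGGAAA, an E2F site on the opposite strand, 198 to 191 bases before its start (chr10:110745189-110745438, plus strand). Rbl1 held TTTCGCGC 18 to 11 bases before its start (chr2:157204535-157204784, minus strand). E2f8 held TTCAAA, a CHR on the opposite strand, 20 to 15 bases before a start annotated inside the gene, and 30 bases are shown (chr7:48881599-48881628, minus strand).
E2f7: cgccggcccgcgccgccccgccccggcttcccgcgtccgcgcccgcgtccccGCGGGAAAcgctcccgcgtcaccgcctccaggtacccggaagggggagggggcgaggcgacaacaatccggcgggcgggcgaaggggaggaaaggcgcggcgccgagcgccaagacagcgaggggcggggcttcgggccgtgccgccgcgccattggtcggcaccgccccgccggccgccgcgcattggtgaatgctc
Rbl1: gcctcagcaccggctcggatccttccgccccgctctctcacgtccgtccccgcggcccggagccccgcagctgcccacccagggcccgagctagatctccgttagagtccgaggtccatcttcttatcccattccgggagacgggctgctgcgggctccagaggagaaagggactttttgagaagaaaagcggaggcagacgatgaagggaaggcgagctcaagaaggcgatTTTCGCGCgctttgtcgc
E2f8: gagcgggttaatTTCAAAtcgggggctgga
An E2F site and a CHR were also found in 1 window of E2f3, and a CHR in 1 window of E2f2, and neither gene passed the CD15 test. A match describes the letters of the window only.

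By a search over all tested genes, those whose level followed each called gene most closely across the 21 arrays were named. For E2f8 they were Plk4, a kinase of centriole duplication (Pearson r = 0.95), Cenpf (0.92) and Aspm (0.91), which work at the kinetochore and the spindle pole. For E2f7 they were Top2a, the topoisomerase that untangles replicated DNA (0.88), Elavl1, an RNA-binding protein (0.87), and Snx7 (0.86). For Rbl1 they were Anln, an actin-binding protein of cytokinesis (0.89), Nedd1, which recruits the microtubule nucleator (0.84), and the spindle checkpoint kinase Ttk (0.84). The points share the arrays and their scaling, and genes were picked for their r, so these values are a description. Taken as deviations from group means, the r values were 0.70 to 0.87.

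The genes around the E2F factors were counted in fixed lists, chosen with results of these data known. Of 30 measured E2F target genes of G1 and S phase, 0 passed in Math1-GFP tumours and 12 were higher in conventional tumours, with medians of 0.10 and 0.42. Averaged, 10 of 30 were higher and 0 lower. The backgrounds of genes called higher were 3.05% in conventional tumours and 3.77% in the average. With 1 array left out the conventional count was 9 to 19, the 19 without conventional CD15 negative array 6, and the average count 5 to 14, the 5 without Math1-GFP CD15 positive array 7. Over the other settings they were 0 to 19 and 0 to 18, with 0 in the unnumbered arrays and number 6. Tk1, a thymidine salvage kinase, was higher by 0.60 ± 0.12 (adjusted p = 0.0028), Rrm1, a ribonucleotide reductase subunit, by 0.40 ± 0.09 (0.0047), Gins1 of the replicative helicase by 0.43 ± 0.09 (0.0048) and its partner Mcm7 by 0.29 ± 0.07 (0.013). All 30 had a positive sign in conventional tumours and 23 of 30 in Math1-GFP tumours; as for the members, the interaction passed for 0 of 30.

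Of 14 measured late cell cycle genes of G2 and M phase, 1 was higher in Math1-GFP tumours, 14 in conventional tumours and 14 in the average. The medians were 0.74, 0.88 and 0.83. All genes were called at 0.0404% in either direction in Math1-GFP tumours, and at 3.05% and 3.77% higher in conventional tumours and in the average. The Math1-GFP count of 1 changed when single arrays were left out. It was 4 without conventional CD15 negative array 5, 2 without conventional CD15 negative array 6 or Math1-GFP CD15 positive array 1, and 0 without conventional CD15 positive array 3, conventional CD15 negative array 3 or 4, Math1-GFP CD15 positive array 5, 7 or 9, or Math1-GFP CD15 negative array 2, 4, 8 or 10. Under the other settings it was 0 to 14. The conventional and average counts of 14 were the same without each array in turn. Under the other settings they were 0 to 14 and 12 to 14, and the conventional 0 came from the unnumbered arrays and number 6. Birc5, a chromosomal passenger and the 1 called in Math1-GFP tumours, was higher by 0.87 ± 0.08 on average (adjusted p = 2.0e-06), Plk1, a mitotic kinase, by 0.97 ± 0.13 (9.9e-05), Ube2c, an anaphase ubiquitin-conjugating enzyme, by 1.06 ± 0.14 (0.00012) and cyclin gene Ccnb2 by 0.97 ± 0.13 (0.00016). The 14 average differences ran from 0.62 to 1.06, beside 0.59 for E2f8.

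**Figure D4:**
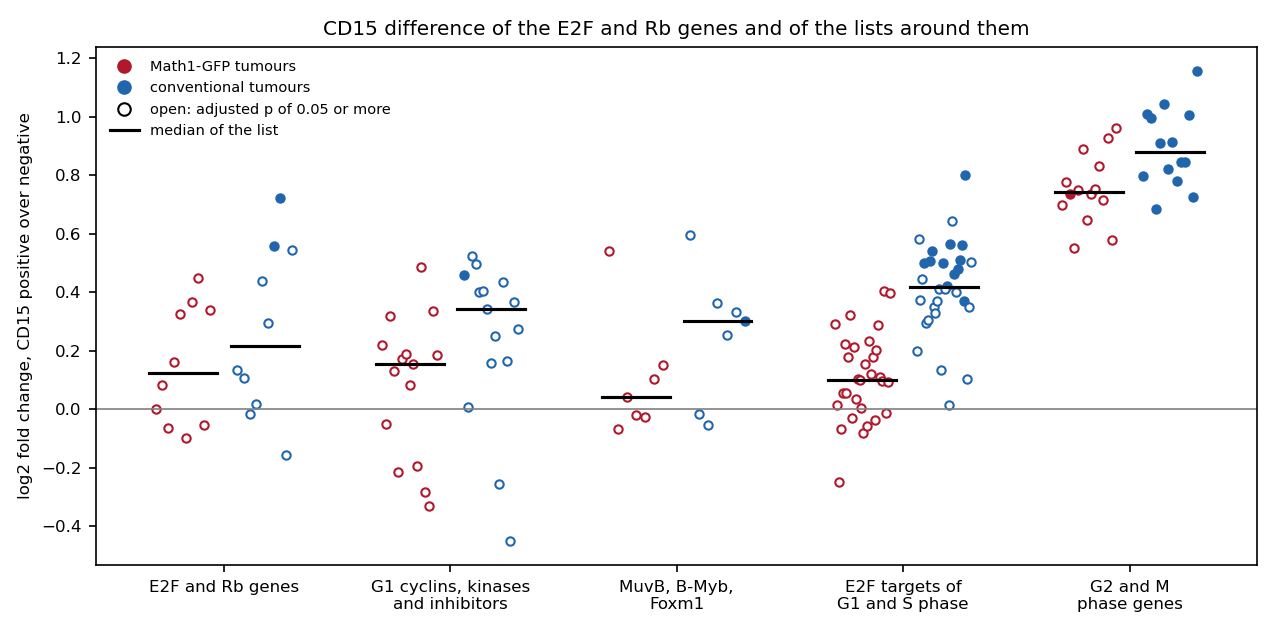
Log2 fold change of CD15 positive over CD15 negative cells for the 10 E2F and Rb genes, 15 G1 cyclins, kinases and inhibitors, 7 MuvB, B-Myb and Foxm1 genes, 30 E2F targets and 14 G2 and M phase genes; each point is a gene, filled where its adjusted p is under 0.05, and lines are list medians. The G2 and M phase genes lie above 0.55 in both models, whereas the medians of the E2F targets are 0.10 in Math1-GFP and 0.42 in conventional tumours.

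Upstream of the pocket proteins, 1 of 15 G1 cyclins, kinases and inhibitors passed, Ccnd1, the cyclin D1 gene that Hedgehog signalling induces (average 0.34 ± 0.09, adjusted p = 0.023), near the 3.77% of all genes called higher. The count was 0 without Math1-GFP CD15 positive array 5, 2 without conventional CD15 negative array 3 or Math1-GFP CD15 negative array 4, 3 without conventional CD15 positive array 6, and 0 to 7 under the other settings, 13 of 16 of which moved it. Cdk4, its kinase partner, gave 0.27 ± 0.09 (0.055), Cdk2 0.29 ± 0.10 (0.081) and the inhibitor Cdkn2d 0.23 ± 0.11 (0.19). The MuvB core pairs with p107 or p130 in resting cells and with B-Myb and Foxm1 in cycling cells. Of 7 genes of the core, B-Myb and Foxm1, 2 were higher, beside the same 3.77%. These were Foxm1, by 0.57 ± 0.15 (0.020), and the core gene Rbbp4, by 0.23 ± 0.07 (0.043). Only 1 of the 7 was called on leaving out any 1 of 15 of the 21 arrays, that is, any but conventional CD15 positive arrays 3 and 6, conventional CD15 negative array 2 and the unnumbered one, Math1-GFP CD15 positive array 9 and Math1-GFP CD15 negative array 4. The count was 0 or 1 under 5 of 16 other settings. Mybl2, the B-Myb gene, gave 0.22 ± 0.12 (0.26), Lin54 0.17 ± 0.13, Lin9 0.11 ± 0.14, Lin37 -0.04 ± 0.09 and Lin52 -0.01 ± 0.13. None of the dimer partners Tfdp1 (0.27 ± 0.13, adjusted p = 0.20) and Tfdp2 (0.05 ± 0.15) and the third pocket protein gene Rbl2 (0.09 ± 0.09) passed.

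Of 7 measured E2F6 partners in the variant Polycomb complex, 1 was higher in the average, L3mbtl2 (0.30 ± 0.08, adjusted p = 0.017). Of all genes, 3.77% were called higher there. The others, Mga (-0.26 ± 0.10), Wdr5 (0.17 ± 0.11), Cbx3 (0.13 ± 0.14), Rnf2 (0.05 ± 0.07), Pcgf6 (-0.02 ± 0.12) and Ring1 (0.00 ± 0.16), did not pass. Of the germline genes that E2F6 represses, 4 were on the array with a usable probe set and 3 of these were below the filter. Stag3, the meiotic cohesin gene past it, gave -0.15 ± 0.19 (adjusted p = 0.68).

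Among the cell type lists, differentiating neurons had the most genes called by CD15, in conventional tumours and in the average. Of 7 measured genes of differentiating neurons, none passed in Math1-GFP tumours, where all 7 had a negative sign and the median was -0.74 (-1.55 to -0.40). In conventional tumours 6 were lower, beside 5.09% of all genes, and the median was -1.13. Mapt, for example, gave -1.25 ± 0.12 in the average (adjusted p = 3.5e-06). The list's summed signal was 5502 to 9352 in Math1-GFP CD15 positive cells against 9279 to 14631 in Math1-GFP CD15 negative cells, and 5059 to 9720 in conventional CD15 positive cells against 9554 to 21866 in conventional CD15 negative cells. Gabra6, of mature granule neurons, was below the filter. Neurod1 of the granule lineage was lower as well (-0.88 ± 0.20, adjusted p = 0.0071), but that list was mixed. Of its 8 genes, 1 was called higher and 1 lower in the average, with 4 positive and a median of 0.04. All genes were called higher at 3.77% and lower at 5.97% there. The part of these neuron genes in the differences of E2f7, E2f8 and Rbl1 was not tested. The microglial sum was 278 to 1325 in Math1-GFP CD15 positive against 166 to 439 in Math1-GFP CD15 negative cells, and 575 to 11043 in conventional CD15 positive against 233 to 2741 in conventional CD15 negative cells. None of the 8 microglial genes was called by CD15 (C1qa 0.96 ± 0.50, adjusted p = 0.25). Their sign was positive for 7 of 8 in Math1-GFP tumours (median 0.46), 8 of 8 in conventional tumours (0.85) and 8 of 8 in the average (0.67). In the average, 1 of 7 astrocyte genes (Aqp4, 1.05 ± 0.32, 0.044) and 1 of 6 oligodendrocyte lineage genes (Olig1, 1.08 ± 0.29, 0.019) were higher, beside 3.77% of all genes. A positive sign was held by 6 of the 7 astrocyte genes (median 0.75) but by only 2 of the 6 oligodendrocyte lineage genes (median -0.03). None of the 8 genes of mural cells and fibroblasts passed by CD15, with 7 of 8 positive in Math1-GFP tumours (median 0.30) and 0 of 8 in conventional tumours (median -0.60). Their summed signal was 280 to 966 in Math1-GFP CD15 positive against 224 to 376 in Math1-GFP CD15 negative cells, and 237 to 1717 in conventional CD15 positive against 277 to 4647 in conventional CD15 negative cells. The part of these other cell types in the CD15 differences was not tested. Few genes of the remaining lists were past the filter: 3 of neutrophils, 4 of endothelial cells, 2 of lymphocytes and 1 of erythroid cells. None of these passed by CD15. Mpo, Kdr, Cd79a and Klf1, 1 of each list, had median signals of only 15.7 to 19.2. The neutrophil sum was 55.5 to 435 in Math1-GFP CD15 positive against 33.6 to 225.5 in Math1-GFP CD15 negative cells. It was 43.4 to 198 in conventional CD15 positive against 35.8 to 1422 in conventional CD15 negative cells, highest on array 5. Its part was not tested either.

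Between the tumour models, E2f8, E2f1 and Rb1 were higher in Math1-GFP cells on their brightest probe sets. E2f8 was higher by 0.59 ± 0.13 (adjusted p = 0.0010), E2f1 by 0.30 ± 0.08 (0.0076) and Rb1 by 0.31 ± 0.11 (0.036), averaged over both fractions. These 3 of 10 stood beside 18.7% of all genes called higher, 20.5% called lower and 39.2% in either direction. With 10 genes, a count of 3 is near this background. On the brightest probe sets the signals of the models overlapped for each of the 10 genes, while 1.35% of all genes were higher in Math1-GFP cells without overlap. E2f1 averaged 437 ± 25 in Math1-GFP and 370.169 ± 64.7 in conventional CD15 positive cells, and 436 ± 28 in Math1-GFP and 334 ± 50 in conventional CD15 negative cells (SD). Rb1 averaged 1024 ± 60 in Math1-GFP and 808 ± 170.415 in conventional CD15 positive cells, and 1065 ± 81 in Math1-GFP and 903 ± 189.662 in conventional CD15 negative cells. The Rb1 call was lost (adjusted p of 0.0505 to 0.0625) without any 1 of 9 arrays: Math1-GFP CD15 positive arrays 1, 7 and 9, Math1-GFP CD15 negative arrays 2, 8 and 10, conventional CD15 positive array 2, and conventional CD15 negative array 6 and the unnumbered one. Without Math1-GFP arrays 1 and 2, E2f8 gave 0.47 (0.0059), E2f1 0.32 (0.010) and Rb1 0.29 (0.077). Rb1 gave 0.15 (0.13) against conventional arrays 2 to 5 alone and 0.62 (0.0047) against the unnumbered arrays and number 6.

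Different probe sets of the same gene disagreed on the model. E2f6 was higher in Math1-GFP cells by 1.02 ± 0.20 on 1437914_at (adjusted p = 0.00032 in the fit of every probe set) and gave -0.26 ± 0.17 on 1448835_at. On 1437914_at, the Math1-GFP signals of arrays 1 and 2 were 253 and 189, and those of the other Math1-GFP arrays 63.9 to 116. The conventional signals were 9.19 to 97.6. Without arrays 1 and 2, the difference was 0.77 ± 0.17 (0.0013) on 1437914_at and -0.03 ± 0.14 on 1448835_at. E2f3 was higher by 0.55 ± 0.09 on 1427462_at (3.9e-05), with 54.3 to 79.3 in Math1-GFP and 19.6 to 52.8 in conventional cells, and gave -0.19 ± 0.12 on its brightest probe set. On 1444319_at of E2f8 the signals were 45.7 to 85.7 in Math1-GFP cells and 0.989 to 28.1 in conventional cells, whose group means lay below the filter signal, so its plotted difference of 1.19 depends on the added 32 and is given as a description. E2f2 was higher by 0.40 ± 0.12 on 1455790_at (0.0092) and by 0.16 ± 0.14, not passing, on the brightest. E2f1 passed on its brightest probe set only. Its 1417878_at gave 0.13 ± 0.11 (0.35) and its dim 1447840_x_at 0.21 ± 0.14 (0.21). In this fit 26.8% of probe sets were called higher and 15.8% lower, and 3 of the genes named here, E2f2, E2f3 and E2f6, were called on the dimmer probe set only.

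**Figure D5:**
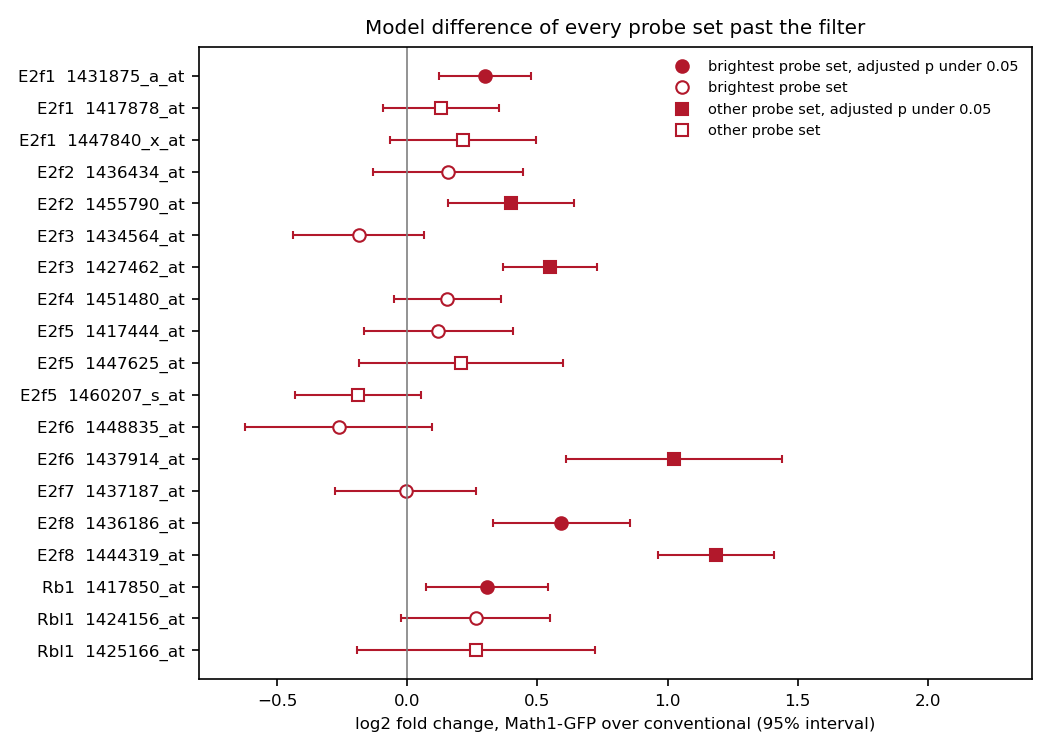
Log2 fold change of Math1-GFP over conventional cells with its 95% interval for each of the 19 probe sets past the filter; circles are the brightest probe set of each gene, squares the others, and filled marks have an adjusted p under 0.05. The 2 probe sets of E2f6 lie at 1.02 and -0.26, and those of E2f3 at 0.55 and -0.19; the conventional signals behind the E2f8 square at 1.19 averaged below the filter signal.

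The GAPDH 3′ to 5′ signal ratio, a measure of RNA or labelling quality, was 0.687 to 0.768 on Math1-GFP arrays and 0.782 to 0.965 on conventional arrays, without overlap. Its part in the model differences was not tested. All 8 microglial genes were lower in Math1-GFP cells, from -0.84 to -1.95. The 8 genes of mural cells and fibroblasts were negative too, from -0.61 to -1.25, and 3 of them passed as lower. The 6 oligodendrocyte lineage genes were positive, from 0.03 to 1.75, with 2 called higher. Of 8 granule lineage genes 3 were higher, of 7 astrocyte genes 2 were higher and 1 lower, and of 7 neuron genes 1 was lower. The part of these cell types in the model differences was not tested. Among the listed genes around the E2F factors, Foxm1 was higher in Math1-GFP cells by 1.26 ± 0.15 (adjusted p = 2.7e-06), Lin54 by 0.58 ± 0.13 (0.0012), Lin9 by 0.50 ± 0.14 (0.0088), Mybl2 by 0.38 ± 0.12 (0.015), Tfdp2 by 0.56 ± 0.15 (0.0053) and Mga by 0.54 ± 0.10 (0.00037). Cdk4 was lower by -0.68 ± 0.09 (4.5e-06), Rbbp4 by -0.49 ± 0.07 (1.8e-05) and Lin37 by -0.52 ± 0.09 (0.00019). Of the 30 E2F targets 8 were higher and 5 lower, with a median of 0.04, and of the 14 G2 and M phase genes 3 were higher and 3 lower, beside 18.7% of all genes called higher and 20.5% called lower.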

How the data were processed

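The deposited table holds an intensity per probe set on a linear scale, which the authors had scaled, judged from the values, to a 2% trimmed mean of 150 on each of 21 arrays. The array software was not given in the sources used here. By the platform table, 34945 probe sets carried 1 gene symbol, 932 carried several and 9224 carried none; those with 1 were used. From these values, log2(signal + 32) was computed, probe sets with a mean below the 40th percentile (a signal of 15.5) were left out, and a gene was represented by its brightest probe set. No detection calls were used, so signals below the filter have no stated background, and the number of arrays limits the precision. limma 3.58.1 (R 4.3.3) fitted the 4 group means over all 21 arrays with contrasts for CD15 in each model, their average, their difference and the models. Benjamini-Hochberg adjustment ran over 12367 genes, with a threshold of 0.05, and the steps were tested on simulated data.

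Groups came from the sample titles. The numbers 2 to 6 of the conventional arrays were taken to pair the fractions: deviations from group means correlated by 0.583 to 0.757 within a number and by 0.396 at most between numbers. The main fit left this pairing out and treated the fractions as independent, and the number entered as a block only among the alternatives. Alternatives were other pseudocounts, filters, probe set rules, normalization, array weights, blocks, and arrays left out. Genes named were all members, the 4 genes of smallest average CD15 p of each list (1 of a cell type list, all of a list of 7 or fewer) and the 3 genes most like each called member. The members and lists were chosen with earlier results of these data known. Promoter windows came from RefSeq tables of GRCm38.p6.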

Additional observations from a re-analysis of the deposited data

Results flagged for a closer look

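In groups of 4 to 6 arrays, the highest or lowest signal of a probe set past the filter was set against the rest, and 3 of 76 such tests found a value far from the others; chance alone gives about 1 in 20, or 3.8. E2f1 probe set 1417878_at reached 479 on conventional CD15 negative array 6, with the next highest of that group at 310.389. E2f3 probe set 1427462_at reached 67.2 on Math1-GFP CD15 positive array 7, with the next at 55.0. E2f5 probe set 1447625_at was 14.8 on Math1-GFP CD15 negative array 2, with the next lowest at 94.9549. None of these is the brightest probe set on which its gene was tested.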

How the results depend on the processing

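The count of members called by CD15 in conventional tumours was 1, in place of 2, with log2(signal + 1), without a filter, with every probe set, with array weights, with only the compared groups, with the numbered arrays and no block, and in arrays 2 to 5, where E2f8 was the one called. It was also 1 when the probe sets of a gene were averaged, where E2f7 was called and E2f8 gave 0.31 (adjusted p = 0.061), and 0 in the unnumbered arrays and number 6. With 1 array left out it was 1 to 3. The average count was 0 in those arrays and 1 to 4 with 1 array left out, and the model count was 6 with every probe set, 5 with the mean of probe sets, 1 in those arrays, and 2 to 3 with 1 array left out. On the numbered arrays, the replicate block gave a conventional count of 2, against 1 without it (E2f7, adjusted p of 0.031 against 0.083), and a model count of 3, against 2 (Rb1, 0.036 against 0.058). The average count was 3 with and without it, and over all genes it called 173 in Math1-GFP tumours, against 12, with 0 members either way. A block that also paired consecutive Math1-GFP numbers, which no label states, was added after seeing the data, as were the array sets; it called 3 members in conventional tumours and 4 on average.

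None of the 8 called values changed sign. Uncalled values near 0 did. For E2f3 in conventional tumours the value was 0.0521 with quantile normalization, 0.0026 on the numbered arrays under each block and without one, and 0.0104 in the unnumbered arrays and number 6; for E2f4 it was -0.0333 with array weights, -0.0518 on the numbered arrays, and -0.0881 in arrays 2 to 5. In Math1-GFP tumours E2f1 gave -0.0432 and E2f6 0.0891 with the mean of probe sets, and E2f1 -0.0199 with the added block. The E2f3 average was 0.0086 with quantile normalization, and the E2f8 interaction 0.0729 with the mean of probe sets. Between models E2f3 gave 0.18 and E2f6 0.38 with the mean of probe sets, E2f3 0.17 and E2f7 0.24 in the unnumbered arrays and number 6, and E2f7 0.0321 without Math1-GFP arrays 1 and 2. With 1 array left out, the ranges were -0.12 to 0.0647 (E2f3) and -0.0481 to 0.13 (E2f4) in conventional tumours; -0.0266 to 0.0306 (E2f1), -0.0715 to 0.31 (E2f2), -0.13 to 0.0066 (E2f3) and -0.30 to 0.17 (E2f6) in Math1-GFP tumours; -0.0885 to 0.0014 (E2f3) and -3.0e-04 to 0.23 (E2f6) on average; and -0.0559 to 0.0578 (E2f7) between models. The cause of these changes was not tested. Where arrays were left out, fewer arrays entered the fit.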
